A study of Homo sapiens with 6 samples.

Results

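The 10 S100 calcium-binding protein genes S100A2, S100A3, S100A4, S100A6, S100A10, S100A11, S100A13, S100A14, S100A16 and S100P were followed in KYSE510 cells after knockdown of a ribonuclease. They were taken by gene symbol from a table of 62700 genes, and all 10 were among the 19682 genes abundant enough to be tested. KYSE510 is an established line of oesophageal squamous cell carcinoma, and RNA was sequenced from 3 libraries of knockdown cells (shRNH1, labelled as RNH1 knockdown, made by shRNA) and 3 libraries of control cells (shControl, labelled WT). The knockdown was made as a model of induced R-loops, in which RNA pairs with DNA. All libraries come from the same line grown in medium with serum. The labels do not say how many shRNA sequences or independent cultures stand behind a group.

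S100 proteins are small EF-hand proteins found in vertebrates. Most work as dimers that change shape when calcium binds and then grip a partner, often an annexin, a cytoskeletal protein or, outside the cell, a receptor such as AGER. Most of the genes lie together on chromosome 1 beside the genes of the cornified envelope, and in stratified epithelia several of them change with keratinocyte differentiation.

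Total counts were 31394687 to 33421217 in shRNH1 libraries and 40225486 to 41103220 in shControl libraries. Levels are given as CPM, counts scaled to a common library size after correction of library sizes by TMM, a method that sets the bulk of genes to no change. RNASEH1 (ENSG00000171865), which encodes the ribonuclease that cuts RNA in RNA:DNA hybrids, measured 7.40, 7.03 and 7.03 CPM in shRNH1 libraries, against 34.9, 32.5 and 27.5 CPM in shControl libraries, and fell by 2.14 on the log2 scale (adjusted p = 1.61e-13, edgeR's quasi-likelihood test). The ribonuclease inhibitor gene whose approved symbol is RNH1 averaged 478 ± 45.5 CPM in shRNH1 and 546 ± 97.4 CPM in shControl libraries (SD, n = 3 each) and did not pass (log2 fold change -0.19, adjusted p = 0.221, edgeR), so the fall was seen in RNASEH1. Over all genes tested, 27.6% passed edgeR's test at an adjusted p below 0.05, 15.3% higher and 12.3% lower in shRNH1. Scaling by library size alone put 73.9% of the passing genes on the higher side, against 55.4% with TMM, and moved the median log2 fold change of all genes to 0.13 against 0.02.

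S100A4, S100A14 and S100P rose in shRNH1 cells, S100A2 fell, and the other 6 genes did not pass the test. The 4 of 10 genes that passed stand beside the 27.6% of all genes tested, which include genes that do not code for protein. Of the 11949 tested genes with a promoter from RefSeq, 32.6% passed. With protein-coding genes alone, 2605 of 13366 were higher and 2368 lower in shRNH1, so the share of the S100 genes is not read as an excess. The median log2 fold change of the 10 genes was -0.003, against 0.016 over all genes tested. The summed level of the 10 genes was 1712, 1383 and 1542 CPM in the shRNH1 libraries, against 1679, 1546 and 1696 CPM in the shControl libraries, and the groups overlapped. S100A6, S100A16, S100A11 and S100A10 made up 91.2% to 91.6% of that sum in shRNH1 and 91.5% to 92.6% in shControl libraries, and none of these abundant genes passed. The values of the groups did not overlap for 6 of the 10 genes, the 4 that passed and S100A3 and S100A16, beside 40.0% of all genes tested. Among the shRNH1 libraries, replicate 2 had the lowest value for 8 of the 10 genes, and among the shControl libraries replicate 2 did for 6. How often these libraries were lowest over all genes tested was not counted.

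**Figure D1:**
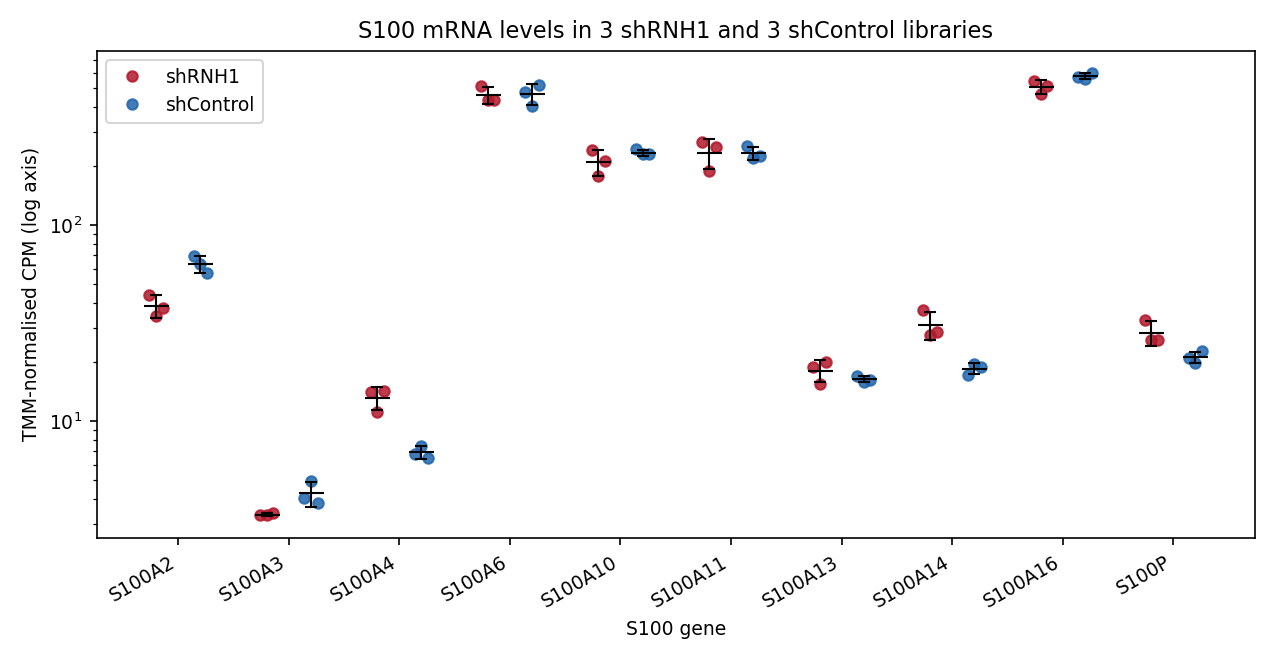
CPM of the 10 S100 genes on a log axis, with 3 shRNH1 libraries (red) left of 3 shControl libraries (blue), and the mean with its SD in black. S100A4, S100A14 and S100P sit higher in every shRNH1 library and S100A2 lower, while the abundant S100A6 and S100A11 overlap between groups.

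Among the genes that rose, S100A4 changed by the largest factor. S100A4 (ENSG00000196154; GRCh38 chromosome 1, 153543613 to 153550136, minus strand) encodes a protein that binds nonmuscle myosin and is known for promoting cell motility and metastasis. Its level was 14.2, 11.1 and 14.2 CPM in shRNH1 libraries, against 6.81, 7.48 and 6.49 CPM in shControl libraries, from 389 to 480 counts in shRNH1 and 239 to 309 counts in shControl libraries. Every shRNH1 value lay above every shControl value. The log2 fold change was 0.92 (SE 0.130), a 1.90-fold rise with a 95% interval of 1.57 to 2.28 (adjusted p = 4.78e-06, edgeR). A two-sided exact permutation of the libraries' CPM gave p = 0.1, and groups of 3 cannot give a smaller one.

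S100A14 (ENSG00000189334; chromosome 1, 153614255 to 153616986, minus strand) encodes an epithelial S100 protein with low calcium affinity. It measured 36.9, 27.5 and 28.5 CPM in shRNH1 libraries, against 17.2, 19.5 and 18.9 CPM in shControl libraries. Again the groups did not overlap, and shRNH1 replicate 1 was the highest library. The log2 fold change was 0.74 (SE 0.113), or 1.67-fold with a 95% interval of 1.42 to 1.96 (adjusted p = 1.47e-05, edgeR; exact permutation p = 0.1).

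S100P (ENSG00000163993; chromosome 4, 6693069 to 6697170, plus strand) lies apart from the chromosome 1 cluster and encodes a protein first found in placenta that binds ezrin and AGER. It measured 32.9, 26.0 and 25.9 CPM in shRNH1 libraries, against 20.9, 19.8 and 22.7 CPM in shControl libraries. The groups did not overlap, though shRNH1 replicates 2 and 3 lay closer to the controls than replicate 1 did. Its log2 fold change was 0.42 (SE 0.109), 1.34-fold with a 95% interval of 1.14 to 1.56 (adjusted p = 0.00459, edgeR; exact permutation p = 0.1). Without shRNH1 replicate 1 the log2 fold change of S100P was 0.30 and did not pass (adjusted p = 0.0735, edgeR).

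S100A2 was the member that fell. S100A2 (ENSG00000196754; chromosome 1, 153561108 to 153567890, minus strand) encodes a protein of basal cells in stratified epithelia that is lowered in several carcinomas. It measured 44.2, 34.3 and 37.7 CPM in shRNH1 libraries, against 69.4, 63.6 and 57.0 CPM in shControl libraries, from 1206 to 1500 counts in shRNH1 and 2102 to 2700 counts in shControl libraries. No shRNH1 library reached the lowest control. The log2 fold change was -0.71 (SE 0.104), which left 61.2% of the control level (adjusted p = 8.75e-06, edgeR; exact permutation p = 0.1), and the 95% interval of the ratio was 0.528 to 0.710.

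The promoters of these 4 genes are shown because genes that moved can be set beside one that did not, S100A6. Each window runs from 250 bases before to 50 bases after a RefSeq start (GRCh38.p14), 5′ to 3′ on the gene's strand, and the windows are chr1:153545757-153546056 (S100A4, minus strand), chr1:153616276-153616575 (S100A14, minus strand), chr4:6693628-6693927 (S100P, plus strand), chr1:153565795-153566094 (S100A2, minus strand) and chr1:153535942-153536241 (S100A6, minus strand). Capitals mark matches on either strand to 5 motifs, the TATA box (TATAA), the AP-1 site (TGACTCA), the GC box (GGGCGG), the CCAAT box and the TEAD site (GGAATG), and adjoining capitals can come from matches that overlap.
S100A4: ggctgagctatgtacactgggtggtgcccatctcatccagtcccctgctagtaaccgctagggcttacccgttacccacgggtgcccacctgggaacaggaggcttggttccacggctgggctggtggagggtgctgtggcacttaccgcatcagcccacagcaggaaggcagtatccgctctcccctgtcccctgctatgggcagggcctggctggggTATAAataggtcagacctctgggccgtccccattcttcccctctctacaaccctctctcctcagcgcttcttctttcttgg
S100A14: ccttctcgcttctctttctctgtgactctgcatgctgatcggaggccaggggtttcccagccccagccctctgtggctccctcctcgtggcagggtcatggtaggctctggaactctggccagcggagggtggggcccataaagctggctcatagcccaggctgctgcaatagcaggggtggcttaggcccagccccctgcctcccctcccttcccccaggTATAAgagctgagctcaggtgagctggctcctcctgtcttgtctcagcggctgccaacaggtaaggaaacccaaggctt
S100P: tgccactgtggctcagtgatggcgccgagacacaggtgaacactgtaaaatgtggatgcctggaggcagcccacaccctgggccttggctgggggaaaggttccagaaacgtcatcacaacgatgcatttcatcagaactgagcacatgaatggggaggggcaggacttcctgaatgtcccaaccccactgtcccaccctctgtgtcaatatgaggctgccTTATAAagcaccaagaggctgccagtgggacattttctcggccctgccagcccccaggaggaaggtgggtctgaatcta
S100A2: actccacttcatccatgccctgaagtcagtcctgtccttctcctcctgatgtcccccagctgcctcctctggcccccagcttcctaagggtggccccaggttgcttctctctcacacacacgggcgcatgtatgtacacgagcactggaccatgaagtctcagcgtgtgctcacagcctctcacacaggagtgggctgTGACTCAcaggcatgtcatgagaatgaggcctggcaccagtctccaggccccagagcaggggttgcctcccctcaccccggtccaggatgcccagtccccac
S100A6: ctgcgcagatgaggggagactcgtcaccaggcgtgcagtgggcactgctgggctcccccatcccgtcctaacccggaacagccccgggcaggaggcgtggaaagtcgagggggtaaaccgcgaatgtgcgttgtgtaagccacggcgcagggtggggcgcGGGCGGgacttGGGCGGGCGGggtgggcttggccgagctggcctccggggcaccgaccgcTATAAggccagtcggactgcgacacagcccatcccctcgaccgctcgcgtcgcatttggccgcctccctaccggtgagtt

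The 3 genes that rose each held TATAA close before the start, its first base 31 bases before it in S100A4 and 29 bases before it in S100A14. In S100P the run TTATAA matched on both strands, 29 and 28 bases before the start. S100A6, which did not pass, held TATAA 30 bases before its start, and another start of S100A13, which also did not pass, held the run TTATAA, matched on both strands 30 and 29 bases before the start. Anywhere in the window and on either strand, TATAA was in 20.4% of all 35116 promoter windows and in 5 of the 14 windows of the S100 genes. On the sense strand, TATAA between 35 and 20 bases before a start was found in 3.70% of these windows. Counted by gene, with a match in any window, it was found in 5 of the 10 S100 genes and in 508 of 11949 tested genes. Of the tested genes with a promoter from RefSeq, 41.1% of 508 with such a TATAA passed edgeR's test, against 32.3% of 11441 without one. Those with it were more often called in both directions. In shRNH1, 23.0% of them were higher and 18.1% lower, against 17.7% higher and 14.6% lower of those without. The S100A2 window shown held no TATAA but an AP-1 match 52 bases before the start, while the window of the other S100A2 start held none of the 5 motifs. S100A3, which did not pass, held an AP-1 match 225 bases before its start. AP-1 letters were in 4.95% of all windows. Such a match is a description of the letters and does not show binding.

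CpG content divided the family in another way. The ratio of observed to expected CpG was 0.293 in the S100A4 window, 0.174 in S100A14, 0.213 in S100P and 0.189 in S100A2, against 0.866 in S100A6, 0.840 in S100A10 and 0.781 in S100A11. Taking the highest window of each gene, the 4 genes that passed were among 6 with a ratio below 0.6, and 0 of the 4 genes at or above 0.6 passed edgeR's test. The limit of 0.6 was set after values were seen, so this split is a description and not a test. Over all tested genes with a promoter the shares that passed in either direction were close, 33.3% of 2008 below 0.6 and 32.5% of 9941 at or above it, but by direction they differed more. Below 0.6, 22.4% were higher and 10.9% lower in shRNH1, against 17.0% higher and 15.5% lower at or above 0.6. With the highest window taken, S100A3 and S100A16 were the CpG-poor members that did not pass. S100A13 was at or above 0.6 only through a window of 0.848 that lies outside its annotated span. Its other windows, at 0.375 and 0.429, were below 0.6, so the split depends on the window chosen. The GC box letters were in 45.0% of all windows and in 6 of the 14 windows of the S100 genes, CCAAT in 34.6% and 3 of 14, and the TEAD letters in 4928 of 35116 and 2 of 14, both of these in S100A16.

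Of the genes that did not pass, S100A6 and S100A11 had fold changes close to 1. S100A6 (calcyclin; chromosome 1, 153534599 to 153536244), a partner of the ubiquitin ligase adaptor CACYBP, measured 513, 434 and 436 CPM in shRNH1 libraries, against 477, 405 and 517 CPM in shControl libraries. The ratio was 0.989 with a 95% interval of 0.852 to 1.15 (adjusted p = 0.933, edgeR). S100A11 (chromosome 1, 152032506 to 152047907), a partner of annexin A1, measured 265, 189 and 249 CPM in shRNH1 libraries, against 252, 221 and 225 CPM in shControl libraries. Its ratio was 1.01 with a 95% interval of 0.863 to 1.18 (adjusted p = 0.961, edgeR), and its spread among shRNH1 libraries came from the low replicate 2. Both intervals leave out the rise of S100A4 and the fall of S100A2, but changes within them were not detectable with 3 libraries a group.

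S100A10 and S100A16 lay somewhat lower in shRNH1. S100A10 (p11; chromosome 1, 151982915 to 151994390) forms a complex with annexin A2 and does not need calcium to do so. It measured 240, 178 and 214 CPM in shRNH1 libraries, against 244, 230 and 230 CPM in shControl libraries, a ratio of 0.897 with a 95% interval of 0.775 to 1.04 (adjusted p = 0.278, edgeR). S100A16 (chromosome 1, 153606886 to 153613145), a broadly expressed member, measured 544, 464 and 513 CPM in shRNH1 libraries, against 571, 559 and 598 CPM in shControl libraries. Its groups did not overlap, but the ratio of 0.881 with a 95% interval of 0.768 to 1.01 did not pass (adjusted p = 0.168, edgeR).

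S100A13 and S100A3 were less abundant. S100A13 (chromosome 1, 153618787 to 153631360), which helps to release FGF1 and interleukin 1 alpha by a route without a signal peptide, measured 18.8, 15.5 and 19.9 CPM in shRNH1 libraries, against 17.0, 15.9 and 16.2 CPM in shControl libraries. The groups overlapped, and the ratio was 1.11 with a 95% interval of 0.943 to 1.30 (adjusted p = 0.374, edgeR). S100A3 (chromosome 1, 153547329 to 153549372), known from the hair cuticle, measured 3.30, 3.30 and 3.39 CPM in shRNH1 libraries, against 4.06, 4.96 and 3.80 CPM in shControl libraries. Its groups did not overlap, and its log2 fold change of -0.36 had an unadjusted p of 0.0495 and an adjusted p of 0.133 (edgeR). With an offset for the trend of fold change over expression level, S100A3 passed at -0.52 (adjusted p = 0.0292, edgeR).

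**Figure D2:**
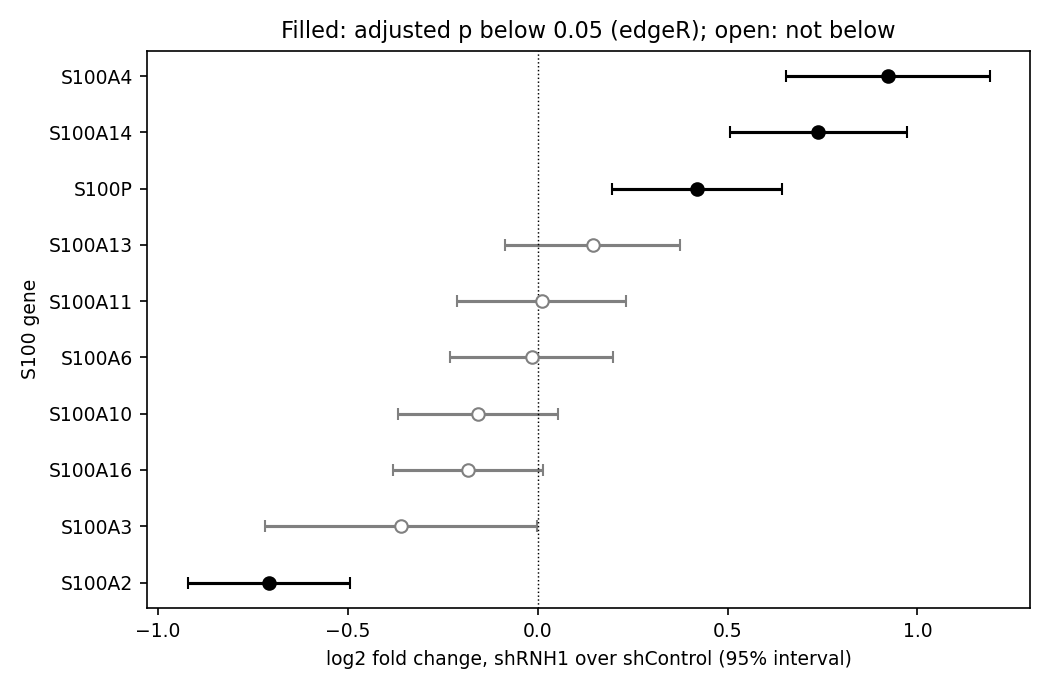
Log2 fold change of shRNH1 over shControl for each S100 gene, with the 95% interval from the edgeR fit, filled where the adjusted p was below 0.05. S100A4, S100A14 and S100P lie to the right of 0, S100A2 lies at -0.71 to the left, and the interval of S100A16 reaches just past 0.

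Some members stand close to genes whose reads could be shared. The annotated span of S100A4 holds all of S100A3 on the same strand, but the exons of the 2 genes share no base in GENCODE 29. Over the full annotation, S100A13 shares 24.2% of its exonic bases with ENSG00000271853 on the same strand, a transcript of 0 to 5 counts per library. It shares 10.6% with S100A1 on the opposite strand, and S100A1 had 18 to 38 counts per library, against 543 to 661 for S100A13. S100A6 shares 23 exonic bases with an antisense gene of 60 to 132 counts. The 8 pseudogenes of S100A11 in the table were listed at 0 in every library.

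Ratios of counts between members within a library do not depend on the scaling of libraries. The count of S100A4 divided by that of S100A2 was 0.320, 0.323 and 0.376 in shRNH1 libraries, against 0.0981, 0.118 and 0.114 in shControl libraries, a difference of 1.63 on the log2 scale. S100A14 divided by its neighbour S100A16 was 0.0678, 0.0592 and 0.0555 in shRNH1 libraries, against 0.0302, 0.0349 and 0.0316 in shControl libraries. S100A2 divided by S100A6 was 0.0863, 0.0791 and 0.0866 in shRNH1 libraries, against 0.145, 0.157 and 0.110 in shControl libraries. In each of these ratios, and in S100A4 divided by S100A6 (0.0286 on average in shRNH1 and 0.0151 in shControl libraries), the groups did not overlap. Each gave p = 0.1 in the exact two-sided permutation test, and these pairs were chosen after the values were seen.

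To compare levels between genes, CPM were divided by the exonic length in kilobases of the transcripts in the basic set of GENCODE 29. Per kilobase, S100A6 was the highest member at 544 ± 53.0 in shRNH1 and 550 ± 66.5 in shControl libraries (SD, n = 3 each), above 99.6% of tested genes in shControl. S100A11, S100A16 and S100A10 followed at 395 ± 67.6, 314 ± 24.8 and 167 ± 25.1 CPM per kilobase in shRNH1, against 392 ± 28.6, 357 ± 12.6 and 187 ± 6.63 CPM per kilobase in shControl libraries. S100A11 and S100A16 overlapped in shRNH1 libraries. In shControl libraries they did not overlap with these lengths, but they did with the exons of the full annotation. S100A2 came next at 24.7 ± 3.21 CPM per kilobase in shRNH1 and 40.4 ± 3.93 CPM per kilobase in shControl libraries. In the controls S100A2 stood clear of S100A13 (17.8 CPM per kilobase), S100P (16.5) and S100A14 (14.5). In shRNH1 libraries S100A2 overlapped S100A14 (24.2), S100A14 overlapped S100P (22.1) and S100P overlapped S100A13 (19.7), so that these neighbours in the order were not resolved, while S100A2 did not overlap S100A13. S100A4 (15.9 CPM per kilobase in shRNH1, 8.37 in shControl) and S100A3 (3.49 in shRNH1, 4.47 in shControl) had the lowest means in both groups with these lengths. In shRNH1 libraries S100A4 overlapped S100A13, so their order was not resolved there. The place of S100A13 depends on the length chosen, which is 917 bases in the basic set and 2216 bases in the full annotation. With the full annotation S100A13 had 8.16 CPM per kilobase in shRNH1 and 7.37 in shControl libraries, and S100A4 had 12.8 in shRNH1 and 6.75 in shControl libraries, so that S100A13 lay below S100A4 in shRNH1 and overlapped it in shControl libraries. S100A3 stayed the lowest of the 10 genes with either length.

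The remaining S100 genes were near or at the floor. Of 11 other S100 genes, S100A1, a muscle S100 protein, was abundant enough to test, with 0.616 ± 0.0834 CPM in shRNH1 and 0.623 ± 0.257 CPM in shControl libraries (log2 fold change -0.02, adjusted p = 0.976, edgeR). S100A5 had at most 17 counts in a library and S100A9 at most 12. S100A8, whose product pairs with that of S100A9 in the calprotectin of myeloid cells and inflamed keratinocytes, and the psoriasis gene S100A7 had at most 1 count, and 5 of the 11 genes were listed at 0 in every library. Among 7 fused S100 genes, which encode large cornified envelope proteins, FLG (filaggrin) measured 2.28 ± 0.200 CPM in shRNH1 and 2.34 ± 0.269 CPM in shControl libraries (adjusted p = 0.934, edgeR). HRNR (hornerin) measured 0.292 ± 0.146 CPM in shRNH1 and 0.596 ± 0.107 CPM in shControl libraries (SD, n = 3 each). Its log2 fold change of -1.02 did not pass (adjusted p = 0.106), but without shRNH1 replicate 2 it did (-1.49, adjusted p = 0.0442, edgeR). The other 36 listed genes of the cornified envelope cluster on chromosome 1, involucrin and loricrin among them, had at most 10 counts in any library, and 30 of them were listed at 0 throughout.

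Annexins, calcium-dependent membrane binding proteins that S100 dimers bridge, moved in both directions. Of 12 tested annexins 2 rose and 5 fell, with a median log2 fold change of -0.03, and ANXA13 was listed at 0. The share of 58.3% that passed stands beside 27.6% of all genes and 32.6% of tested genes with a promoter from RefSeq. ANXA2, the partner of S100A10, measured 955 ± 89.0 CPM in shRNH1 and 1229 ± 55.1 CPM in shControl libraries (log2 fold change -0.36, adjusted p = 0.00769, edgeR), but with the expression level offset it did not pass (-0.17, adjusted p = 0.249). ANXA1, the partner of S100A11, measured 249 ± 28.7 CPM in shRNH1 and 237 ± 20.3 CPM in shControl libraries and did not pass (adjusted p = 0.655, edgeR). The count of S100A10 divided by that of ANXA2 was 0.238, 0.208 and 0.214 in shRNH1 libraries, against 0.197, 0.180 and 0.197 in shControl libraries. Those groups did not overlap (exact permutation p = 0.1), whereas S100A11 divided by ANXA1 overlapped between groups, averaging 0.940 in shRNH1 and 0.987 in shControl libraries (exact permutation p = 0.5). ANXA3 (-1.09) and the gastric annexin gene ANXA10 (-0.88) fell by the largest factors. ANXA8 (-0.47) and its near-identical copy ANXA8L1 (-0.39) fell as well, with reads that can be split between them, and ANXA8L1 did not pass with library size alone (-0.28, adjusted p = 0.0513, edgeR). ANXA4 (0.62), an annexin of polarised epithelia, rose, and so did ANXA9 (1.08), which did not pass without shRNH1 replicate 1 (0.76, adjusted p = 0.0762, edgeR).

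Other partners and receptors of S100 proteins had 2 genes higher and 2 lower of 11 tested, with a median log2 fold change of -0.10. Their share of 36.4% stands beside 27.6% of all genes and 32.6% of tested genes with a promoter from RefSeq. MYH9, the heavy chain of the nonmuscle myosin that S100A4 binds, measured 1121 ± 48.0 CPM in shRNH1 and 1908 ± 303 CPM in shControl libraries (log2 fold change -0.77, adjusted p = 6.81e-06, edgeR). EZR (ezrin), which links membrane to actin and is bound by S100P, measured 436 ± 28.6 CPM in shRNH1 and 724 ± 45.8 CPM in shControl libraries (-0.73, adjusted p = 2.03e-06, edgeR). BSG (basigin), a receptor for extracellular S100 proteins, rose (0.42, adjusted p = 0.00189). S100PBP, a binding partner of S100P, rose (0.32, adjusted p = 0.0242), but it did not pass when any 1 library other than shControl replicate 2 was left out (adjusted p 0.0506 to 0.124, edgeR). AGER and TLR4, receptors for S100 proteins, had log2 fold changes of 0.04 and -0.28, and IL1A, a cargo of S100A13, -0.36, and none of these passed. IL1A had an adjusted p of 0.0660 (edgeR). Of this list, 3 genes were called lower, against 2, with the expression level offset, the GC content and length offset or protein-coding genes alone.

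**Figure D3:**
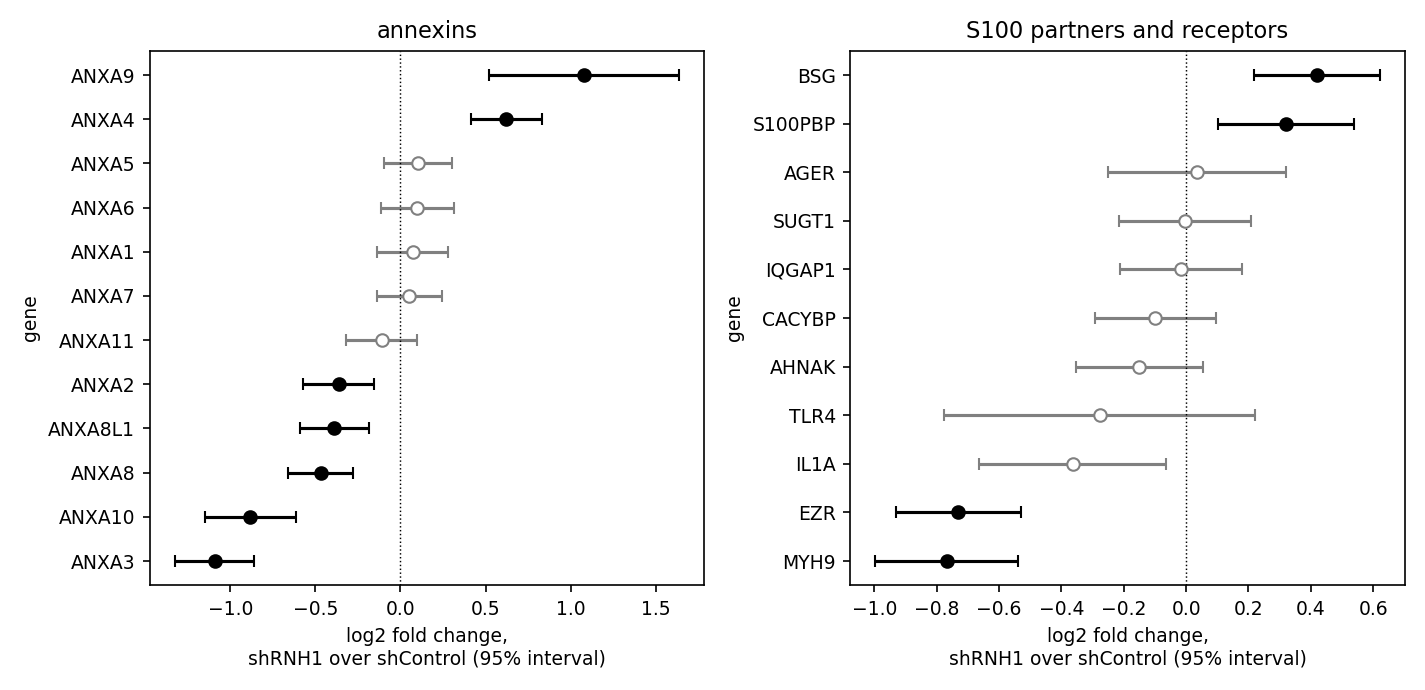
Log2 fold change of shRNH1 over shControl with its 95% interval for 12 annexins (left) and 11 partners and receptors of S100 proteins (right), filled where edgeR's adjusted p was below 0.05. ANXA3 and MYH9 lie at the low ends (-1.09 and -0.77), and ANXA9 and BSG at the high ends (1.08 and 0.42).

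Markers of squamous identity moved both ways beside S100A2 and S100A14. Of 10 squamous markers 5 rose and 3 fell. Their share of 80.0% stands beside 27.6% of all genes and 32.6% of tested genes with a promoter from RefSeq. TP63, a regulator of basal keratinocytes, measured 52.5 ± 4.38 CPM in shRNH1 and 53.2 ± 3.64 CPM in shControl libraries and did not pass (adjusted p = 0.904, edgeR). TRIM29 (0.55) and KRT13, a keratin of differentiated oesophageal epithelium (1.29), rose. SOX2 (2.68), KRT4 (1.68) and PKP1 (3.998) rose by larger factors at much lower levels. They averaged 4.78, 1.57 and 0.459 CPM in shRNH1, against 0.748, 0.488 and 0.0252 CPM in shControl libraries. The markers that fell were KRT5 (-1.33) and KRT14 (-1.40), the keratins of basal cells, and KRT6A (-2.13), a keratin of activated keratinocytes. Of 7 tested simple epithelial markers 2 rose and 3 fell, a share of 71.4% beside the same 27.6% and 32.6%. KRT8 (-0.56), KRT18 (-0.92) and KRT7 (-1.11) fell, while HNF4A (1.34) and VIL1 (2.32) rose at much lower levels. The summed level of that list, nearly all of it keratins, was 6293 to 6667 CPM in shRNH1 and 9329 to 12382 CPM in shControl libraries. The part of these changes in the S100 results was not tested.

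S100A4 is also abundant in fibroblasts and leukocytes, so the markers of those cells are given beside it. Of 8 fibroblast markers DCN, COL1A2 and FAP were listed at 0 in every library, COL1A1 rose (0.98) and PDGFRB fell (-0.91), and the summed level was 111 to 133 CPM in shRNH1 and 62.6 to 71.9 CPM in shControl libraries, nearly all of it COL1A1. Of 13 leukocyte markers 3 were tested, CD8A and MS4A1 were listed at 0, and PTPRC had at most 11 counts. ITGAM rose (2.27) at 0.683 to 0.879 CPM in shRNH1 and 0.103 to 0.190 CPM in shControl libraries. The sum was 8.37 to 10.6 CPM in shRNH1 and 6.34 to 7.73 CPM in shControl libraries. Most of it was CSF1R, which averaged 7.02 CPM in shRNH1 and 5.91 CPM in shControl libraries and did not pass. Of 4 tested endothelial markers PECAM1 rose (0.51) and the others did not pass, with sums of 21.3 to 22.6 CPM in shRNH1 and 21.8 to 24.3 CPM in shControl libraries. The shares that passed were 100% of 2 tested fibroblast, 33.3% of 3 leukocyte and 25% of 4 endothelial markers, beside 27.6% of all genes. With so few genes tested, these shares are not read as a result about the cell types. How the levels of these markers in the KYSE510 line relate to the rise of S100A4 was not tested. These RNA pools cannot tell more cells with a transcript from more RNA per cell.

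**Figure D4:**
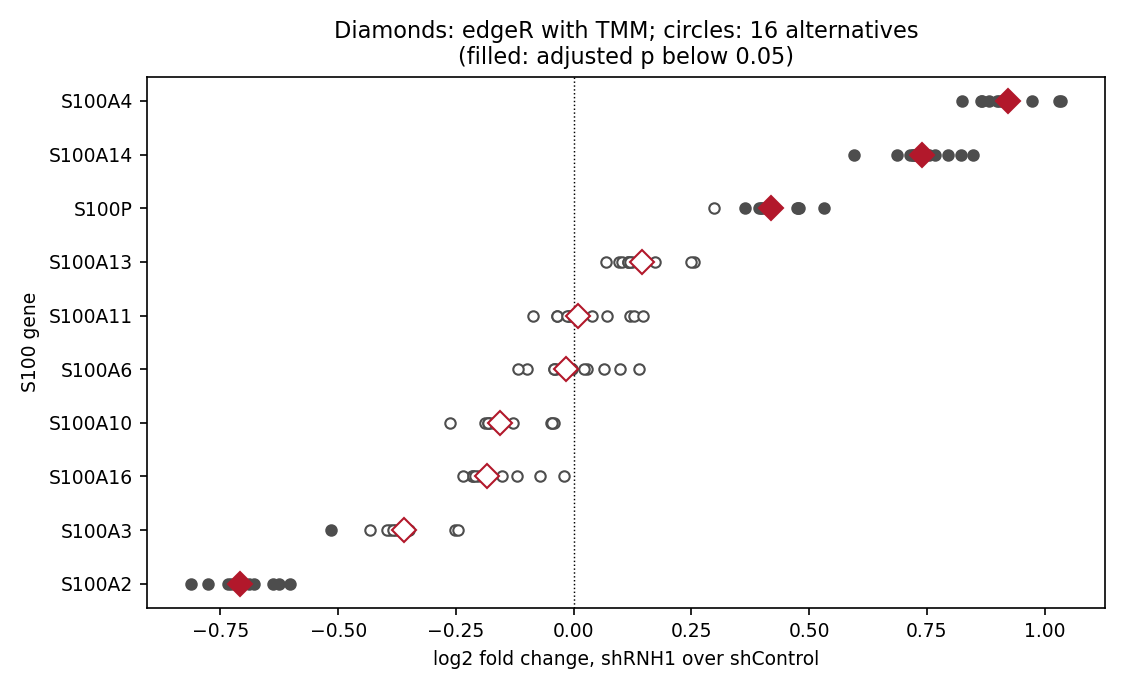
Log2 fold change of shRNH1 over shControl of each S100 gene under edgeR with TMM (red diamonds) and 16 alternatives (grey circles), filled where the adjusted p was below 0.05. S100A2, S100A4 and S100A14 are filled throughout, S100P has 1 open circle at 0.30, and S100A6 and S100A11 scatter on both sides of 0.

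Across 16 other ways of processing, S100A2 stayed between -0.81 and -0.60, S100A4 between 0.83 and 1.03 and S100A14 between 0.60 and 0.85 on the log2 scale. Each of these 3 genes passed under all 16, with largest adjusted p of 2.17e-04, 4.86e-04 and 0.00112 (edgeR, DESeq2 or limma-voom). S100P ranged from 0.30 to 0.53 and passed under 15. S100A10, S100A13 and S100A16 kept their sign and did not pass under any of the 16.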

How the data were processed

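RNA of KYSE510 cells was sequenced in 3 shRNH1 and 3 shControl libraries. Per the labels' protocols, poly(A) RNA was selected, fragmented and copied with random primers into circular DNA libraries. The authors deposited raw counts for 62700 Ensembl gene IDs in 6 columns, with 0 columns unmatched. The submitters' processing notes name HISAT2, StringTie, DESeq2 and GRCh38. Counter, strand setting and annotation release were not given in the sources, so overlapping and antisense genes cannot be told apart. Replicates are labelled biological, with no word on separate cultures, so that the spread behind each p-value may be technical. Replicate pairs differed by more than sampling noise (chi-square per gene 5.90 to 18.5), and none was taken as a copy.

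Groups were compared by quasi-likelihood in edgeR 4.0.16 (R 4.3.3) with TMM, filterByExpr by group and Benjamini-Hochberg adjustment over 19682 genes at 0.05. Standard errors come from the F statistic, intervals cover the spread between samples, and no p was adjusted over the S100 genes alone. CPM of single genes were compared with an exact two-sided permutation test (scipy 1.17.1). Gene lists are described by counts and medians, with no set test. Alternatives were DESeq2's size factors and test (1.42.0), limma-voom (limma 3.58.1), scaling by library size alone, a replicate block, no filter, a stricter filter (1 CPM or more in 3 or more libraries), offsets for expression level or for GC content and length (splines of 5 degrees of freedom, MASS 7.3.60.0.1), protein-coding genes alone, and each library left out.

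Symbols were found for 62700 IDs. Positions, exonic length (basic set, with the full annotation added as an alternative after the data were seen), the longest transcript and its GC content came from GENCODE 29, which held 58207 of them and covered 95.3% of the tested genes. Promoters came from RefSeq (GRCh38.p14), matched by symbol for all 10 genes. The scripts were tested on simulated data.

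The S100 genes and all lists were chosen with earlier results of these data known, and the motifs, the TATA window and the CpG limit after values were seen. Named genes were all 10 members, RNASEH1, RNH1, the tested S100 and fused S100 genes, ANXA1, ANXA2 and every annexin or partner that passed, up to 4 passing genes of the EF-hand and neighbour lists, and the 3 most abundant squamous markers. A gene of the neighbour list that this rule names is not reported here. Untested S100 genes and markers named otherwise were chosen after their values were seen.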

Additional observations from a re-analysis of the deposited data

How the results depend on the processing

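Over the 10 S100 genes, 144 of 160 alternative values kept their sign and their side of the threshold, 1 was no longer called, 1 was newly called and 14 changed sign. For the other named genes these numbers were 422, 8, 1 and 15 of 446. S100A6 and S100A11, neither called, changed sign: S100A6 was 0.10 under scaling by library size alone and 0.14 under the expression level offset, and S100A11 was -0.010 with DESeq2 size factors, -0.0021 with the replicate block, -0.0005 with protein-coding genes alone, -0.015 by DESeq2 and -0.0024 by limma-voom. Leaving out 1 library gave -0.12 to 0.065 for S100A6 and -0.086 to 0.15 for S100A11. Likewise uncalled, S100A1 was 0.080 with library size alone, 0.021 with the replicate block and 0.038 by limma-voom (-0.20 to 0.36 with 1 library left out), FLG was 0.081 with library size alone (-0.10 to 0.062), ANXA1 was -0.014 with the GC content and length offset (-0.0064 to 0.17), and TP63 was 0.089 under library size alone and 0.011 under the expression level offset (-0.075 to 0.046). The cause was not tested. S100 genes called lower numbered 2 with the expression level offset, S100A3 being added. With 1 library left out, 2 to 3 S100 genes were called higher and 1 lower.

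Over all genes 3006 were higher and 2418 lower, 4065 and 1433 with library size alone, and 2336 to 2996 and 1814 to 2315 with 1 library left out. Replicate numbers did not pair the libraries (same-number r of deviations 0.05, 0.06 and -0.05), and not every library correlated best with its own number. The replicate block gave 2938 higher and 2156 lower and changed no call among the S100 genes, but left 1 of the 4 lower chromosome 1 neighbours. Depth limits S100A1, HRNR and the other S100 genes, at under 1 CPM.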

Other observations

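Other EF-hand genes, which share the calcium-binding fold but not the S100 dimer, had 5 higher and 2 lower of 21 tested. Their share of 33.3% stands beside 27.6% of all genes and 32.6% of tested genes with a promoter from RefSeq. The median of their log2 fold changes was 0.04. RCN3, a reticulocalbin of the endoplasmic reticulum, measured 4.70 ± 0.505 CPM in shRNH1 and 1.41 ± 0.264 CPM in shControl libraries (SD, n = 3 each; log2 fold change 1.73, adjusted p = 3.00e-07, edgeR). The nucleobindin genes NUCB1 and NUCB2, whose products bind calcium in the Golgi, rose by 0.68 and 0.75, at 241 ± 16.1 and 13.8 ± 1.98 CPM in shRNH1, against 150 ± 17.7 and 8.20 ± 0.487 CPM in shControl libraries. The calpain gene CAPN2 fell by 0.54 on the log2 scale (adjusted p = 6.81e-05, edgeR), at 434 ± 14.9 CPM in shRNH1 and 632 ± 22.5 CPM in shControl libraries.

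Other protein-coding genes within 500 kb of the 9 S100 genes on chromosome 1 numbered 58. Of the 27 that were tested, 4 rose and 4 fell (median -0.05 on the log2 scale). Their share of 29.6% stands beside 27.6% of all genes and 32.6% of tested genes with a promoter from RefSeq. With protein-coding genes alone, 2605 of 13366 were higher and 2368 lower, so the neighbours' share is not read as an excess. The number of neighbours that fell was 1 with library size alone and 1 to 3 with 1 library left out. It was 1 without shRNH1 replicate 3 and 2 without shRNH1 replicate 1. SLC27A3, a fatty acid transporter gene 143 kb from S100A13, and CREB3L4, 336 kb from it, rose by 0.55 and 0.68, and TUFT1, 399 kb from S100A10, fell by 0.52 on the log2 scale.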
